A study of Mus musculus with 14 samples.

Results

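Interferon-stimulated genes are the genes that cells switch on when an interferon reaches their surface. A set of 38 of them was read out in mouse kidney. The members were the 38 listed mouse symbols, matched by Ensembl identifier among the 47729 genes of each count table, and all 38 were found and passed the filter on low counts that left 17926 genes for testing. The study compared wildtype mice with mice labelled SMOC2 transgenic, each with and without unilateral ureteral obstruction (UUO), a surgical block of the outflow of 1 kidney that injures and scars it. WT_normal (3 libraries) is wildtype kidney with no treatment, WT_UUO (4 libraries) is wildtype kidney with 7 days of obstruction, SMOC2_normal (3 libraries) is untreated kidney labelled SMOC2 transgenic, and SMOC2_UUO (4 libraries) is kidney of the same label with 7 days of obstruction. Strain, age, the promoter driving the transgene and whether each library is its own animal are not given by the labels that define these groups, so p-values measure the spread between libraries, which may in part be technical. The treatment text attached to the same samples describes an injection of folic acid instead of obstruction. Groups were taken from the genotype and treatment labels and from the series' design.

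Type I interferons signal through the receptor pair Ifnar1 and Ifnar2 and the kinases Jak1 and Tyk2 to transcription factors that include STAT2 and IRF9 and bind a DNA element called the interferon-stimulated response element (ISRE). Interferon gamma signals through Ifngr1 and Ifngr2 to a second element, the gamma-activated site (GAS), and to genes such as those of the guanylate-binding proteins and the immunity-related GTPases. The induced proteins sense foreign RNA, degrade or block it, restrict viruses and intracellular microbes, present antigen, or feed back on the signal. In kidney they can be made by infiltrating leukocytes as well as by tubular, endothelial and stromal cells, and bulk RNA does not separate these sources. For the same reason, fewer cells of a type and less RNA per cell cannot be told apart.

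Total counts per library ran from 19483994 to 30033405. The smallest member, Oas3, had under 10 counts in every normal library and was the only member that low. The labelled tissue showed in its own markers: 10 proximal tubule genes summed to 20760 to 25850 CPM (counts of a gene relative to the library total, scaled by the TMM method) in the 6 normal libraries. Smoc2, the gene of the transgene, had 25.2 ± 16.1 CPM (SD, n = 3) in WT_normal against 21.8 ± 9.66 (n = 3) in SMOC2_normal, and 147 ± 11.4 (n = 4) in WT_UUO against 96.1 ± 18.5 (n = 4) in SMOC2_UUO. These counts were not higher in the libraries labelled transgenic (log2 difference -0.22 in normal and -0.61 in obstructed kidney, edgeR adjusted p = 0.85 and 0.389). Each genotype comparison below is therefore a comparison between libraries labelled SMOC2 transgenic and libraries labelled wildtype.

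Obstruction raised most of the members under both genotype labels. Of the 38 members, 31 were called higher and 0 lower in WT_UUO against WT_normal (edgeR quasi-likelihood test, Benjamini-Hochberg adjusted p under 0.05), where 31.3% of all tested genes were called higher and 29.8% lower. In SMOC2_UUO against SMOC2_normal 31 were again called higher and 0 lower, with 32.5% of all tested genes called higher and 30.4% lower. At an unadjusted p under 0.05 the counts were also 31 higher and 0 lower in each comparison, beside 64.5% of all tested genes in either direction in WT and 66.2% in SMOC2. DESeq2 and limma-voom called 0 members lower as well. The same 31 members were called in both comparisons. Among them, Mx1 and Oas3 passed the filter on low counts only through the obstructed libraries, where they were high. Both are also in the counts of separated libraries below. The median log2 change of the 38 was 1.57 in WT and 1.37 in SMOC2, beside 0.05 and 0.04 over all tested genes. A change of at least 2-fold was reached by 29 members in WT and by 26 in SMOC2. Ifit3, Ifit3b, Rsad2, Cmpk2, Trim25, Ifi44 and Gbp3 were the 7 members not called in either comparison.

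The libraries themselves separated for most members. In 28 of 38 members each of the 8 obstructed libraries lay above each of the 6 normal libraries, a pattern that 23.4% of all tested genes shared. Within wildtype alone 29 members did so (31.3% of all tested genes), and within the transgenic label 31 (32.6%). Usp18, Xaf1 and Ifih1 were the members called higher that did not separate across all 14 libraries. Without WT_normal replicate 3, the normal library with the highest levels, 31 members separated.

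**Figure D1:**
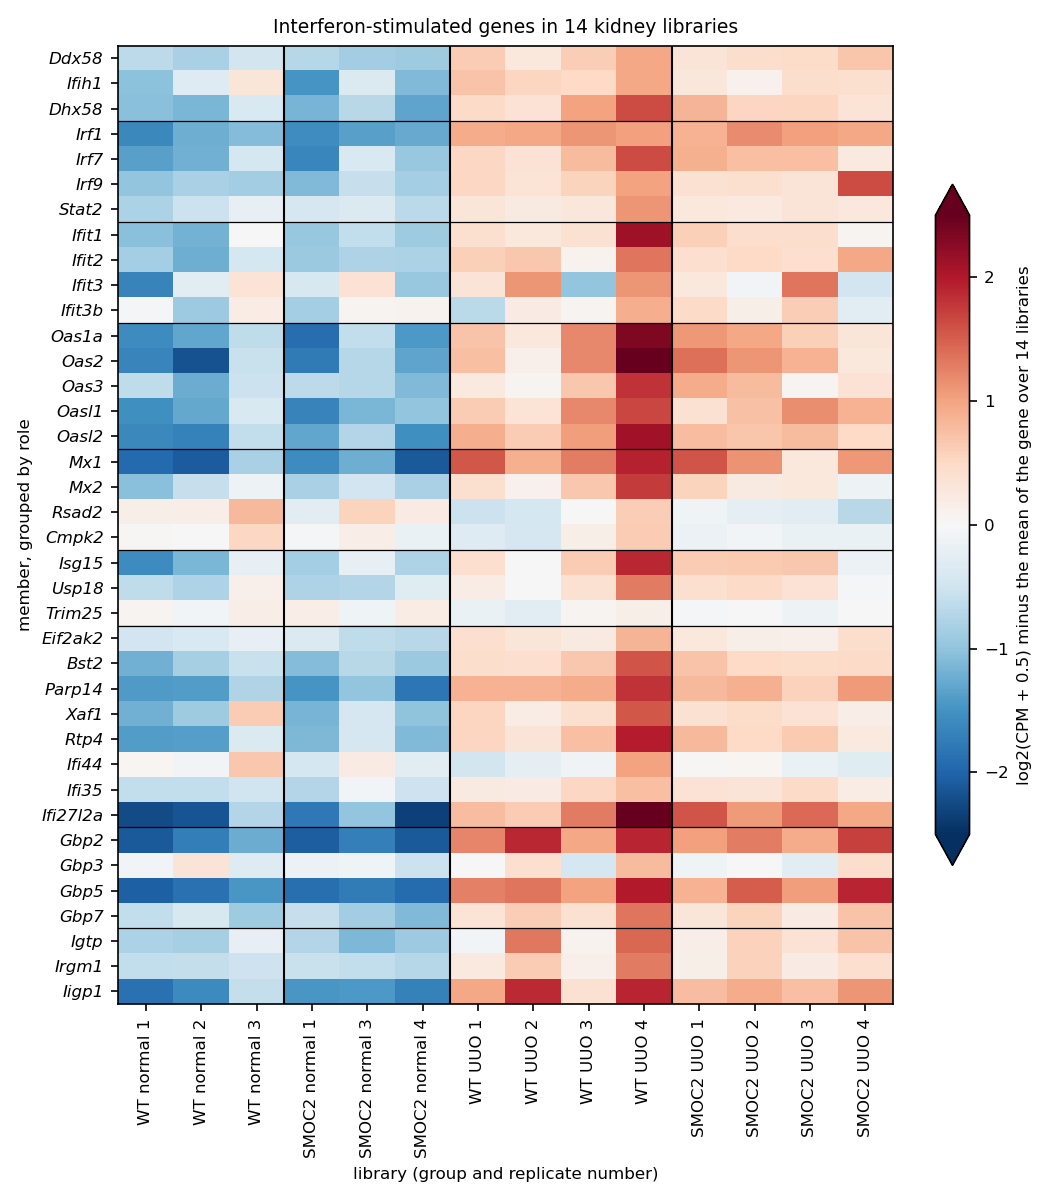
Level of each of the 38 members (rows, grouped by role) in each of the 14 libraries (columns). Colour is log2(CPM + 0.5) minus the mean of the gene over the 14 libraries, so red is above and blue below that mean. The obstructed libraries are red for most rows, WT_UUO replicate 4 is the reddest column, and the rows of Rsad2, Cmpk2, Trim25, Ifi44 and Gbp3 show little contrast between normal and obstructed kidney.

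**Figure D2:**
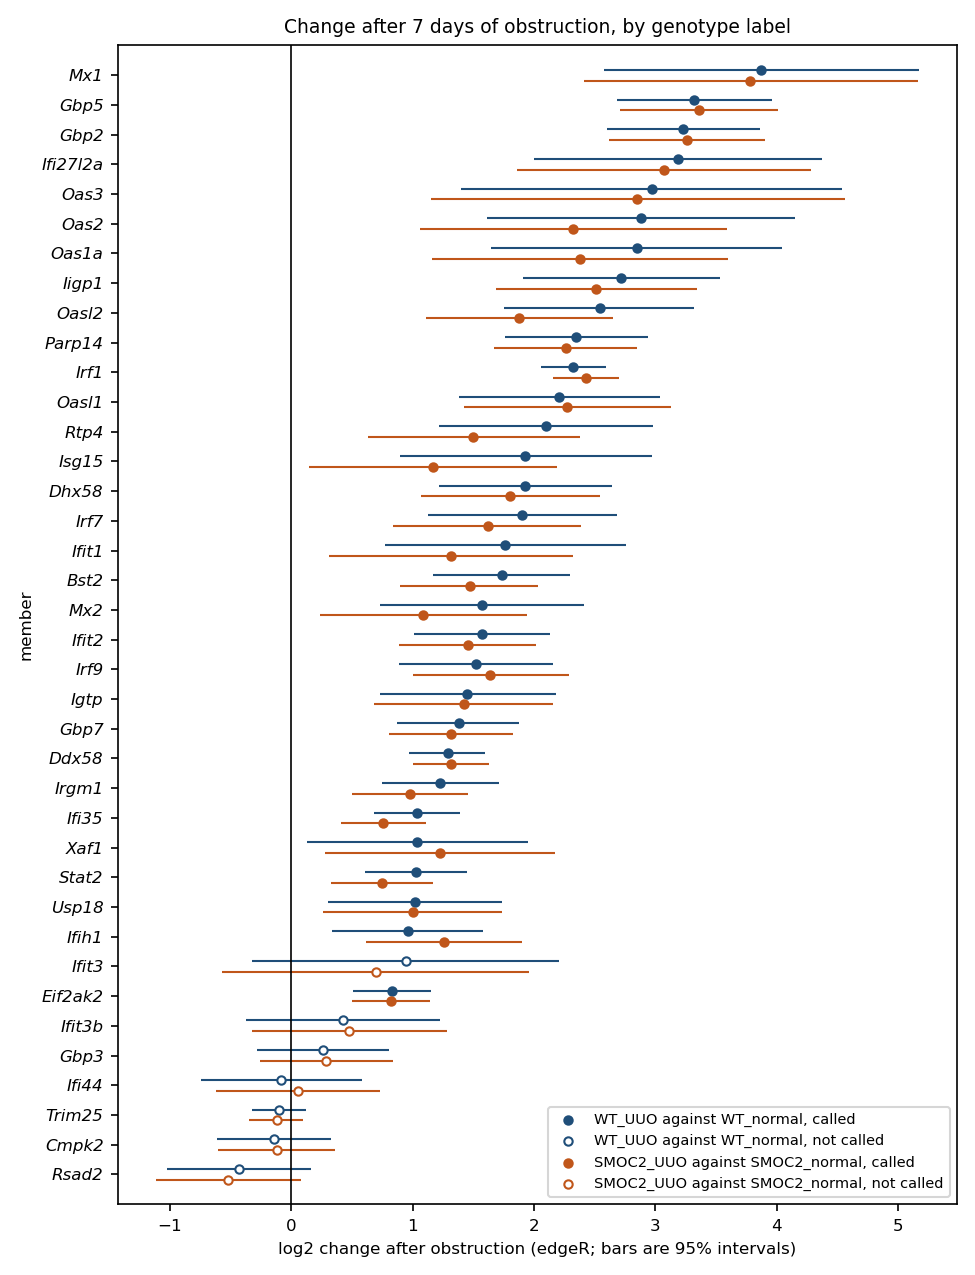
Log2 change after obstruction (horizontal axis) of each member (vertical axis, ordered by the wildtype change), with 95% intervals from edgeR. Blue is WT_UUO against WT_normal and orange is SMOC2_UUO against SMOC2_normal; filled points are called at adjusted p under 0.05 and open points are not. Mx1, Gbp5, Gbp2 and Ifi27l2a have the largest changes, the 7 members with open points have intervals that reach 0, and the intervals of the 2 genotype labels overlap for every member.

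Because the members are defined by a shared response, their promoters were searched for the elements named above. RefSeq promoter windows of the GRCm38.p6 build, from 250 bases before to 50 bases after the annotated start, were found for 29 of the 38 members. Windows were missing for Mx1, Mx2, Rtp4, Parp14, Iigp1, Oas2, Dhx58, Usp18 and Ifi27l2a. The long form of the ISRE searched here was GAAA and GAAACT with any 2 bases between them, on either strand. It occurred in 11 of 29 members (37.9%) and in 0.303% of the 27025 genes with a window. It was present in 8 of the 22 members with a window that were called higher in both comparisons and in 3 of the 7 that were called in neither. A shorter form that drops the last CT of the long one, and so is contained in it, occurred in 18 of 29 members (62.1%) and in 3.99% of genes. The GAS form TTCNNNGAA occurred in 9 of 29 members (31.0%) and in 9.55% of genes; 9 of the 22 members called higher held it and 0 of the 7 others did. Members without a window were all called higher in both comparisons, so these splits lack part of that side only and were not tested. A match is a description of the letters and no record of binding, and no match says only that these letters are not in this window.

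The stretches around the long form are printed for 4 members that rose in both comparisons (Ifit1, Oas1a, Bst2 and Gbp7) and for the 3 that carried it and were not called (Ifit3, Ifit3b and Gbp3), so that the same element can be seen in both sets. Each run is 60 bases, 5′ to 3′ on the strand of the gene, outside every annotated exon, with a single match in capitals. In Oas1a and Bst2 that match reads as searched, and in the others as its reverse complement. The positions are chr19:34640778-34640837 (Ifit1, plus strand), chr5:120907526-120907585 (Oas1a, minus), chr8:71537567-71537626 (Bst2, minus), chr3:142530257-142530316 (Gbp7, plus), chr19:34583347-34583406 (Ifit3, plus), chr19:34607743-34607802 (Ifit3b, plus) and chr3:142559966-142560025 (Gbp3, plus).
Ifit1: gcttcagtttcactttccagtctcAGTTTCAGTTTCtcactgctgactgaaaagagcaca
Oas1a: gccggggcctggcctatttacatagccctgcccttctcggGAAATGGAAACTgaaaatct
Bst2: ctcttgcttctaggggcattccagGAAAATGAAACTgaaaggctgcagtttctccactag
Gbp7: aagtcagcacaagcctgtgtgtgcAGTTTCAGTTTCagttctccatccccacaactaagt
Ifit3: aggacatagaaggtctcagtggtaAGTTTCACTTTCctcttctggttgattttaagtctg
Ifit3b: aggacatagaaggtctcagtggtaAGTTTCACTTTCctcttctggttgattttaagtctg
Gbp3: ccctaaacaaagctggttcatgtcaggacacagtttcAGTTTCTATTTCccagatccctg
The printed runs of Ifit3 and Ifit3b were identical at 60 of 60 bases, and 217 of the 250 bases before their starts were identical when aligned. Ifit1 and Gbp3 held the long form at 2 places in the window, both inside the printed run. The match not put in capitals has its first base at -106 in Ifit1 and at -47 in Gbp3, where it overlaps the one in capitals. The first base of the match in capitals lay at position -87 from the start in Ifit1, at -20 in Oas1a, at -130 in Bst2 and at -55 in Gbp7.

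The cytosolic RNA sensors all rose. Ddx58 encodes RIG-I, which recognises RNA with 5′ triphosphate ends, Ifih1 encodes MDA5, which recognises long double-stranded RNA, and Dhx58 encodes LGP2, a related helicase that modulates both. Ddx58 rose 2.44-fold in WT (log2 change 1.29 ± 0.15 SE, edgeR adjusted p = 3.68e-06) and 2.49-fold in SMOC2 (1.32 ± 0.15, adjusted p = 2.87e-06). Dhx58 rose 3.81-fold and 3.49-fold, and Ifih1 1.94-fold and 2.39-fold. Ifih1 spread more than the others between normal libraries, at 7.98, 13.4 and 21 CPM in WT_normal and 5.76, 13.0 and 7.55 in SMOC2_normal. Its obstructed libraries had 27.9, 24.8, 24.1 and 33.5 CPM in WT_UUO and 20.6, 18.1, 22.8 and 22.5 in SMOC2_UUO. WT_normal replicate 3 thus overlapped the SMOC2_UUO libraries, while each SMOC2_UUO library lay below each WT_UUO library.

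Among the transcription factors, Irf1 had the smallest adjusted p of all 38 members in both obstruction comparisons. Irf1 (chr11:53770014-53778374, GRCm38) encodes interferon regulatory factor 1, a transcription factor induced early by interferon. It had 15.7, 20.7 and 22.7 CPM in WT_normal, 16.4, 18.8 and 20.05 in SMOC2_normal, 93.2, 96.5, 106 and 99.5 in WT_UUO and 89.8, 112, 100.3 and 95.9 in SMOC2_UUO. The lowest obstructed library was well above the highest normal one, and the 2 genotype labels overlapped in both states. The rise was 5.01-fold in WT (log2 2.32 ± 0.12 SE, edgeR adjusted p = 1.07e-08) and 5.40-fold in SMOC2 (2.43 ± 0.13, adjusted p = 8.41e-09). WT_UUO replicate 4, highest of its group for the other 37 members, was not the highest for Irf1.

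Irf7, the factor that amplifies type I interferon production, rose 3.74-fold in WT (edgeR adjusted p = 3.98e-04) and 3.07-fold in SMOC2 (adjusted p = 0.00137). Stat2 and Irf9 encode transcription factors that act together at the ISRE. Stat2 rose 2.05-fold in WT and 1.69-fold in SMOC2. Irf9 rose 2.88-fold and 3.13-fold, with 67.1, 59.5, 69.6 and 94.6 CPM in WT_UUO and 61.0, 62.1, 58.8 and 147 in SMOC2_UUO. SMOC2_UUO replicate 4 stood far above the other 3 libraries of its group for Irf9, and Stat2 in that library, at 57.8 CPM, was within the range of the other 3 (57.0 to 60.5).

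The IFIT family, whose proteins bind viral RNA that lacks the host's cap modification and block its translation, split into 2 pairs. Ifit1 (chr19:34640871-34650009) had 3.13, 2.79 and 6.97 CPM in WT_normal, 3.38, 4.38 and 3.54 in SMOC2_normal, 9.34, 8.55, 9.27 and 32.0 in WT_UUO and 10.9, 9.71, 9.65 and 7.35 in SMOC2_UUO. WT_UUO replicate 4 carried more than 3 times the level of any other library in its group. Ifit1 rose 3.39-fold in WT (log2 1.76 ± 0.46 SE, edgeR adjusted p = 0.00435), and without WT_UUO replicate 4 the log2 change was 1.06. In SMOC2 it rose 2.49-fold (adjusted p = 0.024), a call that ended without SMOC2_normal replicate 1 or replicate 4 (highest adjusted p over the alternatives 0.072). Ifit2 rose 2.96-fold and 2.74-fold.

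Ifit3 and Ifit3b lie in the same cluster on chromosome 19 as Ifit1 and Ifit2, and were not called. Ifit3 had 3.35, 9.56 and 15.0 CPM in WT_normal, 8.70, 15.1 and 5.83 in SMOC2_normal, 14.8, 25.8, 5.62 and 25.8 in WT_UUO and 14.1, 11.1, 30.4 and 8.28 in SMOC2_UUO. Its libraries spread widely within each group, and WT_UUO replicate 3 was below 2 of the 3 WT_normal libraries. The log2 changes were 0.95 in WT (95% interval -0.32 to 2.21, edgeR adjusted p = 0.181) and 0.70 in SMOC2 (-0.57 to 1.96, adjusted p = 0.322). For Ifit3b they were 0.43 and 0.48, with adjusted p = 0.335 and 0.280. Of the 50-base stretches of Ifit3 transcripts, 51.2% occur also in Ifit3b, so the counts of these genes, and their split between the pair, are uncertain.

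The 2′-5′-oligoadenylate synthetases rose as a group, 5 of 5 under both labels, though Oas3 passed the filter on low counts only through the obstructed libraries. Oas1a, Oas2 and Oas3 make the messenger that activates RNase L, which cuts RNA, and Oasl1 and Oasl2 are OAS-like proteins. Oas2 (chr5:120730333-120749853) had 2.16, 1.34 and 5.18 CPM in WT_normal, 1.94, 4.61 and 2.86 in SMOC2_normal, 13.6, 8.65, 18.7 and 46.6 in WT_UUO and 21.3, 17.6, 14.7 and 9.54 in SMOC2_UUO. The states did not overlap, and the highest and the lowest obstructed libraries differed by more than 5 times within wildtype. Oas2 rose 7.37-fold in WT (log2 2.88 ± 0.59 SE, edgeR adjusted p = 7.34e-04) and 5.01-fold in SMOC2 (2.32 ± 0.59, adjusted p = 0.00335). Without WT_normal replicate 3 the wildtype log2 change of Oas2 was 3.62.

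Oasl2 rose 5.81-fold in WT and 3.68-fold in SMOC2, and Oasl1 rose 4.62-fold and 4.83-fold. Oas1a rose 7.20-fold and 5.20-fold. Its log2 change of 2.85 in WT was 2.25 without WT_UUO replicate 4, and its change of 2.38 in SMOC2 was 3.05 without SMOC2_normal replicate 3. Of the Oas1a stretches, 57.6% are shared with Oas1g, so this count too is uncertain. Oas3 rose from 0.192 ± 0.168 CPM (SD, n = 3) to 1.66 ± 1.34 (n = 4) in WT and from 0.175 ± 0.107 (n = 3) to 1.26 ± 0.463 (n = 4) in SMOC2. Oas3 had 0 to 8 counts per library in WT_normal and 1 to 4 in SMOC2_normal. At so few counts its wildtype log2 change of 2.97 was 2.26 without WT_UUO replicate 4.

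Mx1 and Mx2 encode dynamin-like GTPases that block virus replication. Mx1 (chr16:97447035-97462907) showed the largest change of the 38, 14.7-fold in WT (log2 3.87 ± 0.60 SE, edgeR adjusted p = 7.27e-05) and 13.8-fold in SMOC2 (3.78 ± 0.64, adjusted p = 1.41e-04). It rested on low normal levels of 0.176, 0.112 and 0.974 CPM in WT_normal and 0.376, 0.610 and 0.104 in SMOC2_normal. Counts of Mx1 per library were 2 to 25 in WT_normal and 2 to 11 in SMOC2_normal, against 127 to 219 in WT_UUO and 74 to 233 in SMOC2_UUO. Mx1 thus passed the filter on low counts only through the obstructed libraries, so its call and its rank are not independent of that filter. The obstructed libraries had 7.15, 4.27, 5.80 and 9.36 CPM in WT_UUO and 7.25, 5.15, 2.62 and 4.99 in SMOC2_UUO. Every obstructed library was above every normal one, and the size of the fold depended on which normal libraries entered: the log2 change was 5.44 in WT without WT_normal replicate 3 and 4.41 in SMOC2 without SMOC2_normal replicate 3. Mx2, annotated as a polymorphic pseudogene in the reference annotation used here, rose 2.97-fold in WT and 2.13-fold in SMOC2. Its SMOC2 call (adjusted p = 0.0269) ended in limma-voom and without SMOC2_normal replicate 1 or 4 or SMOC2_UUO replicate 1 (highest adjusted p 0.0817).

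Rsad2 (chr12:26442746-26456452) and Cmpk2 (chr12:26469204-26479837) lie beside each other and did not follow the group. Rsad2 encodes viperin, an enzyme that makes a chain-terminating nucleotide, and Cmpk2 a mitochondrial nucleotide kinase that supplies it. Rsad2 had 27.0, 27.6 and 43.0 CPM in WT_normal, 20.2, 36.0 and 28.2 in SMOC2_normal, 16.7, 17.9, 24.6 and 37.7 in WT_UUO and 22.7, 20.6, 20.3 and 14.9 in SMOC2_UUO. Of the 8 obstructed libraries only WT_UUO replicate 4 was above the lowest WT_normal library, and the groups overlapped. The log2 change was -0.43 in WT (95% interval -1.02 to 0.16, edgeR adjusted p = 0.193) and -0.52 in SMOC2 (-1.11 to 0.08, adjusted p = 0.118). Without WT_UUO replicate 4 the wildtype change was -0.72 and was called lower (adjusted p = 0.0194). Cmpk2 changed by -0.14 and -0.12 on the log2 scale (adjusted p = 0.606 and 0.646).

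In the ISG15 system, 2 of 3 members rose. Isg15 encodes a ubiquitin-like protein that is joined to other proteins, Usp18 the protease that removes it and that also binds the interferon receptor and dampens its signal, and Trim25 a ligase that acts on RIG-I and attaches ISG15. Isg15 (chr4:156199424-156200818) had 1.45, 2.12 and 4.56 CPM in WT_normal, 2.75, 4.55 and 2.92 in SMOC2_normal, 7.25, 5.35, 8.52 and 20.9 in WT_UUO and 8.56, 8.72, 8.77 and 4.75 in SMOC2_UUO. WT_UUO replicate 4 was highest and SMOC2_UUO replicate 4 lowest among the obstructed libraries, the latter just above the normal range. The rise was 3.82-fold in WT (log2 1.93 ± 0.48 SE, edgeR adjusted p = 0.00315) and 2.26-fold in SMOC2 (1.17 ± 0.47, adjusted p = 0.0437). Without WT_normal replicate 3 the wildtype change of Isg15 was 2.56. The SMOC2 call of Isg15 ended in 6 alternatives: limma-voom, and without SMOC2_normal replicate 1 or 4 or SMOC2_UUO replicate 1, 2 or 3 (highest adjusted p 0.127).

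Usp18 rose 2.02-fold in WT (edgeR adjusted p = 0.0173) and about 2-fold in SMOC2 (adjusted p = 0.0205). The wildtype call of Usp18 ended without WT_normal replicate 1 or 2, without WT_UUO replicate 4 and when only the compared groups were fitted (highest adjusted p 0.0752). Its SMOC2 call ended without SMOC2_normal replicate 1 or 3 (highest adjusted p 0.0722). Trim25 was not called, at 98.8 ± 7.72 CPM (SD, n = 3) in WT_normal, 92.3 ± 12.1 (n = 4) in WT_UUO, 100.5 ± 11.0 (n = 3) in SMOC2_normal and 92.3 ± 3.76 (n = 4) in SMOC2_UUO. Its log2 change was -0.10 in WT (95% interval -0.32 to 0.12) and -0.12 in SMOC2 (-0.35 to 0.10), so a rise of the size seen for Usp18 lay outside both intervals.

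Of the 8 other effectors, 7 rose under both labels. Ifi27l2a (chr12:103442167-103443680), a member of a family of small hydrophobic interferon-induced proteins, had 1.72, 1.84 and 5.80 CPM in WT_normal, 2.504, 4.77 and 1.56 in SMOC2_normal, 17.4, 15.7, 25.3 and 58.6 in WT_UUO and 30.5, 21.2, 27.5 and 19.9 in SMOC2_UUO. The states did not overlap, and WT_UUO replicate 4 was again the highest. It rose 9.12-fold in WT (log2 3.19 ± 0.55 SE, edgeR adjusted p = 1.81e-04; 4.03 without WT_normal replicate 3) and 8.41-fold in SMOC2 (3.07 ± 0.56, adjusted p = 2.79e-04). Per kilobase of transcript, Ifi27l2a moved from rank 8 of the 38 members in WT_normal (6.74 RPKM, which is CPM divided by exon length in kilobases) to rank 1 in WT_UUO (63.2 RPKM).

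Parp14, an ADP-ribosyltransferase that modifies host and viral proteins, rose 5.11-fold in WT and 4.79-fold in SMOC2, from 24.2 ± 6.89 CPM (SD, n = 3) to 124 ± 45.3 (n = 4) and from 20.5 ± 6.02 (n = 3) to 98.2 ± 13.3 (n = 4). Bst2 encodes tetherin, which holds budding virus at the cell surface, and rose 3.33-fold and 2.76-fold. Rtp4, a transport protein with antiviral activity, rose 4.27-fold and 2.83-fold. Eif2ak2, which encodes the RNA-activated kinase PKR that stops translation, rose 1.78-fold and 1.77-fold. Ifi35 rose 2.05-fold and 1.70-fold; 16.8% of its exon bases lie under a gene on the other strand, and the strand setting used in counting is not known here.

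Xaf1, a pro-apoptotic factor, had 4.72, 6.04 and 18.3 CPM in WT_normal and 16.99, 13.1, 15.4 and 34.9 in WT_UUO, so WT_normal replicate 3 lay above 3 of the 4 obstructed libraries. Its wildtype rise of 2.06-fold (edgeR adjusted p = 0.0466) was not called without WT_normal replicate 1 or 2, without WT_UUO replicate 1 or 4 and when only the compared groups were fitted (highest adjusted p 0.182). Without WT_normal replicate 3 its log2 change of 1.04 became 1.90. In SMOC2 it rose 2.34-fold (adjusted p = 0.0252), a call that ended without SMOC2_normal replicate 1 or 4 (highest adjusted p 0.0899). Ifi44 was the exception of this group, with log2 changes of -0.08 in WT (95% interval -0.74 to 0.58) and 0.06 in SMOC2 (-0.62 to 0.73). It had 34.4 CPM in WT_UUO replicate 4 against 12.03 to 15.7 in the other 3; without that library its wildtype change was -0.52 and was called lower (adjusted p = 0.0475).

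The guanylate-binding proteins and immunity-related GTPases, large GTPases that attack the membranes around intracellular microbes and are classical interferon gamma targets, rose in 6 of 7 members. Gbp2 (chr3:142620602-142638008) had 10.8, 14.1 and 20.02 CPM in WT_normal, 11.1, 14.3 and 10.8 in SMOC2_normal, 112, 178, 94.2 and 179 in WT_UUO and 98.2, 116, 91.2 and 158 in SMOC2_UUO. The lowest obstructed library was more than 4 times the highest normal one, and both obstructed groups had libraries near 95 as well as above 150 CPM. Gbp2 rose 9.38-fold in WT (log2 3.23 ± 0.29 SE, edgeR adjusted p = 5.06e-07) and 9.58-fold in SMOC2 (3.26 ± 0.30, adjusted p = 4.56e-07). Gbp5 rose 9.96-fold and 10.3-fold, and Gbp7 2.60-fold and 2.49-fold.

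Gbp3, between Gbp7 and Gbp2 on chromosome 3, was already the highest member per kilobase in normal kidney (33.8 RPKM in WT_normal and 28.3 in SMOC2_normal) and was not called. Its CPM was 104, 138 and 88.0 in WT_normal and 111, 148, 80.9 and 189 in WT_UUO, which overlap. The log2 change was 0.26 in WT (95% interval -0.28 to 0.81, edgeR adjusted p = 0.386) and 0.29 in SMOC2 (-0.26 to 0.84, adjusted p = 0.340). Gbp3 and Gbp7 carry the same ISRE form at the positions printed above, and only Gbp7 was called.

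Iigp1, an immunity-related GTPase, had 4.76, 5.81 and 12.1 CPM in WT_normal, 6.45, 6.55 and 5.42 in SMOC2_normal, 37.1, 69.1, 24.4 and 70.7 in WT_UUO and 32.0, 35.7, 31.7 and 40.5 in SMOC2_UUO. WT_UUO replicates 2 and 4 were close to each other and well above replicates 1 and 3. Iigp1 rose 6.59-fold in WT (log2 2.72 ± 0.38 SE, edgeR adjusted p = 2.52e-05) and 5.70-fold in SMOC2 (2.51 ± 0.38, adjusted p = 5.69e-05). Igtp rose 2.74-fold and 2.67-fold, and Irgm1 2.35-fold and 1.97-fold.

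**Figure D3:**
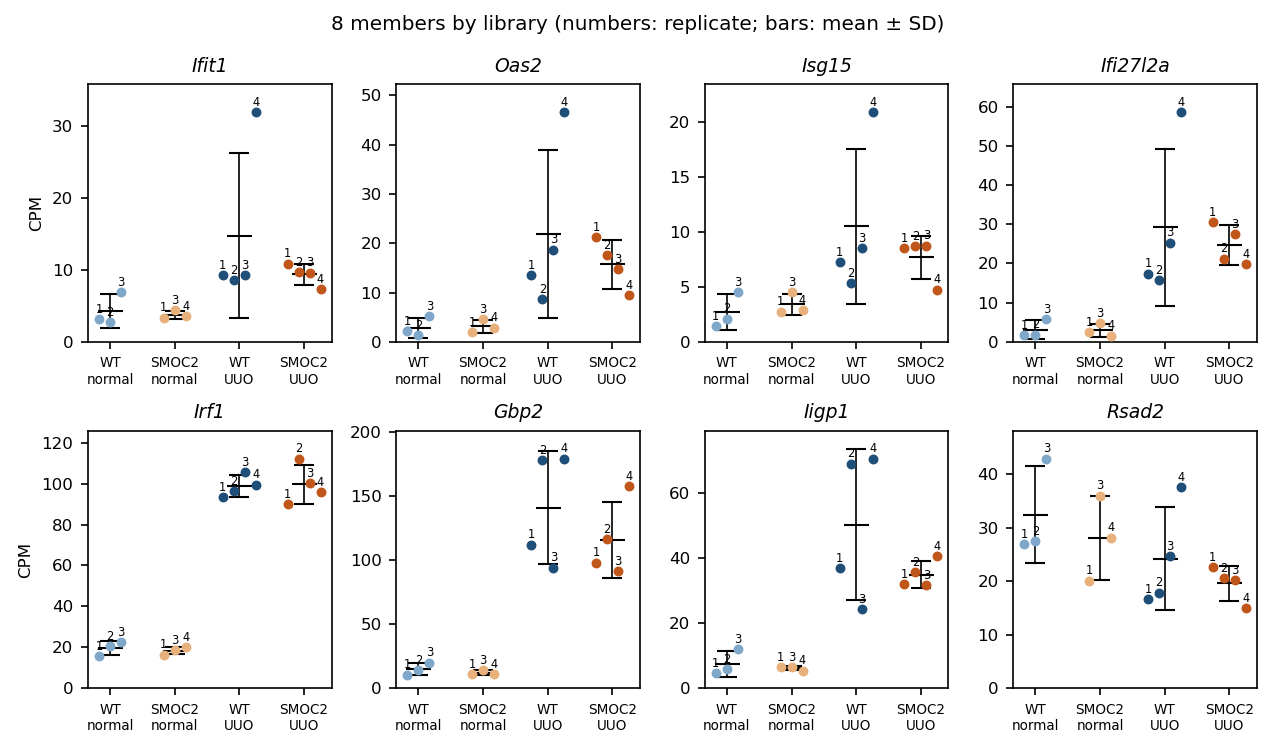
CPM (vertical axes, linear and starting at 0) of 8 members in the 14 libraries, by group. Points are libraries with their replicate number, and bars are the mean ± SD. WT_UUO replicate 4 stands apart for Ifit1, Oas2, Isg15 and Ifi27l2a, WT_UUO replicates 2 and 4 are together the highest for Gbp2 and Iigp1, Irf1 is tight within each group, and Rsad2 overlaps between states.

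Between the genotype labels no member was called. In normal kidney 0 of 38 members passed the edgeR threshold, beside 0.0279% of all tested genes, with 1 member (Ifih1) at an unadjusted p under 0.05 beside 12.8% of all tested genes. In obstructed kidney 0 of 38 passed, beside 0.831% of all tested genes, and 0 had an unadjusted p under 0.05, beside 15.2% of all tested genes. The interaction, which asks whether the obstruction change differed between labels, called 0 of 38 members, and 0% of all tested genes. At an unadjusted p under 0.05 it held 0 members, beside 6.44% of all tested genes. DESeq2 and limma-voom also called 0 members in all 3 comparisons.

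The sign of the difference leaned to lower values under the transgenic label, and the lean changed when single libraries were left out. The libraries left out below were the highest of their groups for most members, so leaving them out had to shift the signs. Why the signs leaned was not tested. In SMOC2_UUO against WT_UUO 35 of 38 members had a negative log2 difference, with a median of -0.28. Over all tested genes the median was -0.01, and 48.4% had a positive difference. Without WT_UUO replicate 4 the count of negative members was 17 and their median 0.02. In SMOC2_normal against WT_normal 27 members were negative, with a median of -0.19 (all tested genes -0.00369, with 49.1% positive). Without WT_normal replicate 3 the values of the members became 10 and 0.14. The interaction had a median of -0.09 with 26 negative members (all tested genes 0.00883, with 51.4% positive). Of the members, 7 were negative without WT_UUO replicate 4 and 35 without WT_normal replicate 3.

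The intervals of single members differed in width. For Ifit1 the difference in obstructed kidney was -0.65 on the log2 scale (95% interval -1.50 to 0.21), and 0.06 without WT_UUO replicate 4. For Mx2 it was -0.67 (-1.40 to 0.05, edgeR adjusted p = 0.371), the largest in absolute size. For Irf1 it was 0.01 (-0.21 to 0.23), which excludes a 1.5-fold difference. Ifih1 was the only member for which each SMOC2_UUO library lay below each WT_UUO library, a pattern found in 4.43% of all tested genes, and 0 members showed the reverse (5.42% of all tested genes); its log2 difference was -0.39 (-0.94 to 0.16, adjusted p = 0.509). In normal kidney no member had libraries that separated by label, whereas 8.84% of all tested genes did so upward and 8.01% downward. The largest interaction was that of Isg15, -0.76 (-2.17 to 0.65, adjusted p = 0.871).

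Members moved together between libraries of 1 group. WT_UUO replicate 4 was the highest of its 4 libraries for 37 of 38 members (all but Irf1), while it was the highest for 27.7% of all tested genes. The summed level of the 38 members was 2512 CPM in that library against 1411, 1567 and 1411 in replicates 1, 2 and 3. WT_normal replicate 3 was highest of 3 for 35 of 38 members (33.9% of all tested genes), all but Irf9, Gbp3 and Gbp7, with a sum of 814 CPM against 625 and 678. SMOC2_normal replicate 3 was highest for 27 of 38 (36.1% of all tested genes). The SMOC2_UUO sums of 1383, 1478, 1363 and 1647 CPM lay closer together.

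This showed in the spread of single members. The median SD of log2(CPM + 0.5) between libraries was 0.557 over the members in WT_UUO against 0.169 over all tested genes, and without replicate 4 it was 0.246 against 0.15. In WT_normal it was 0.402 against 0.163, and 0.129 against 0.141 without replicate 3. In SMOC2_normal it was 0.265 against 0.167, and in SMOC2_UUO 0.238 against 0.163. With WT_normal replicate 3 and WT_UUO replicate 4 both left out, 31 members were still called higher in WT, with a median log2 change of 1.52.

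Roles did not order the libraries alike. In WT_UUO, the OAS members were lowest in replicate 2 (median log2 difference of -0.87 from the median of the other 3 libraries) and highest in replicate 4 (1.56). The immunity-related GTPases were high in both replicate 2 (0.89) and replicate 4 (1.05), and low in replicates 1 (-0.89) and 3 (-1.23). The guanylate-binding proteins followed the same order, at -0.35, 0.33, -0.60 and 0.74 in replicates 1 to 4. In SMOC2_UUO, replicate 4 was the highest library for the guanylate-binding proteins (0.62) and the immunity-related GTPases (0.34). The same library was the lowest for the IFIT family (-0.56), the OAS family (-0.43) and the ISG15 system (-0.43). It was also the lowest, by less, for the group of Mx1, Mx2, Rsad2 and Cmpk2 (-0.21) and for the other effectors (-0.21). Single members of these roles went the other way and were highest in that library: Ifit2 (49.39 CPM), Trim25 (96.03), Eif2ak2 (46.88) and Parp14 (114.0). These are descriptions of 4 libraries a group, with no test.

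**Figure D4:**
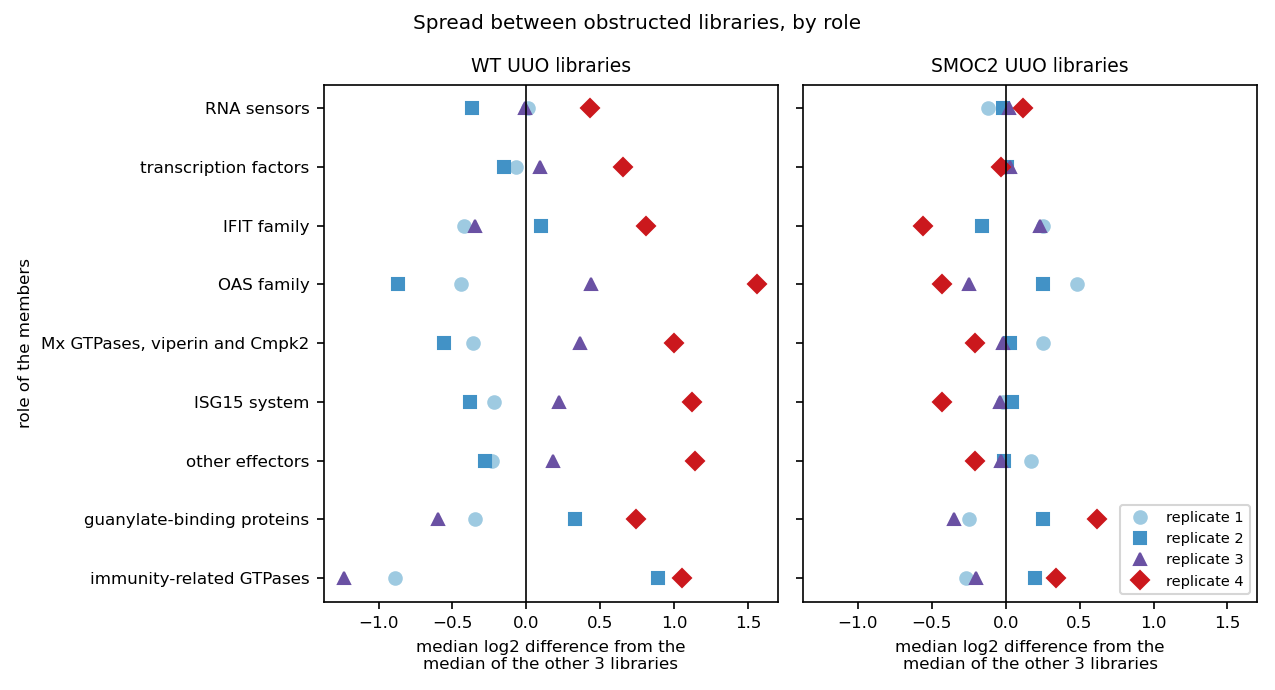
Median over the members of each role (vertical axis) of the log2 difference of a library from the median of the other 3 libraries of its group (horizontal axis), for WT_UUO (left) and SMOC2_UUO (right). In WT_UUO replicate 4 is the highest for each role, with replicate 2 next for the guanylate-binding proteins and immunity-related GTPases and lowest for the OAS family; in SMOC2_UUO replicate 4 is highest for those GTPases and lowest for the IFIT, OAS and ISG15 groups.

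The interferons themselves were scarcely counted. None of the 15 ligand genes listed passed the filter, and 9 of them, among them Ifnb1 and Ifna4, had 0 counts in all 14 libraries, where a count of 0 allows up to 3 counts in a library. Ifng, the gene of interferon gamma, had 1 count over WT_normal, 18 over WT_UUO, 2 over SMOC2_normal and 11 over SMOC2_UUO. Within WT_UUO its level was 0.0359, 0.269, 0.106 and 0.256 CPM in replicates 1 to 4, so replicates 2 and 4 were the higher pair, at very few counts. The sum of all listed ligands in WT_UUO was 0.03591, 0.3029, 0.3183 and 0.2565 CPM, highest in replicate 3. Within SMOC2_UUO the level of Ifng was 0.0622, 0.158, 0.0707 and 0.122 CPM. The sum of all listed ligands there was 0.1556, 0.1981, 0.1414 and 0.1218 CPM, lowest in replicate 4. Ifnk had 11 counts over all libraries, Ifne and Ifnl3 had 2 each, and Ifna2 and Ifnz 1 each. The interferon alpha genes are near-identical copies, and how shared reads were treated in counting is not known here.

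The receptors and the signalling genes behind them rose in 10 of 11 genes in WT (31.3% of all tested genes) and in 9 of 11 in SMOC2 (32.5%). Ifngr2 and Ifngr1, the chains of the interferon gamma receptor, rose most clearly: Ifngr2 by 1.85 ± 0.08 SE on the log2 scale in WT (edgeR adjusted p = 5.45e-09) and 2.04 ± 0.09 in SMOC2, Ifngr1 by 1.99 ± 0.13 and 2.11 ± 0.13. Ifnar1, a chain of the type I receptor, rose by 0.76 ± 0.08 and 0.72 ± 0.08. Stat3 rose by 1.29 and 1.33. Jak2, a kinase of the interferon gamma receptor, was the gene called under neither label (-0.01 and -0.04). Il10rb, a chain of the lambda receptor, was called in WT (0.30) and not in SMOC2 (0.06, edgeR adjusted p = 0.531). The interaction of Il10rb was -0.24 (edgeR adjusted p = 0.78). Jak2 and Il10rb were named after their values were seen.

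Of 15 genes of nucleic acid sensing upstream of interferon, 11 rose and 2 fell in each comparison, beside 31.3% of all tested genes higher and 29.8% lower in WT and 32.5% and 30.4% in SMOC2. Tmem173, which encodes the DNA-sensing adaptor STING, rose by 3.36 ± 0.17 SE on the log2 scale in WT (edgeR adjusted p = 8.96e-09) and 3.73 ± 0.18 in SMOC2. Ikbke, a kinase that activates IRF3 and IRF7, rose by 2.27 and 2.28, Irf8 by 2.01 and 1.95, and Myd88, the adaptor of most Toll-like receptors, by 1.16 and 1.03. The 2 that fell were Mavs, the adaptor of RIG-I and MDA5 on mitochondria, with log2 changes of -0.63 and -0.66, and Ticam1, the adaptor of TLR3, with -0.38 and -0.46; both were named after their values were seen. The RNA sensors among the members and Mavs thus moved in opposite directions under both labels.

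Among 13 tested negative regulators of interferon signalling and sensing, 9 rose and 1 fell in each comparison. Of all tested genes, 31.3% were called higher and 29.8% lower in WT, and 32.5% and 30.4% in SMOC2. The median log2 change of the list was 0.47 in WT and 0.58 in SMOC2. Socs3, an inhibitor of receptor-associated JAK kinases, rose by 4.92 ± 0.25 SE on the log2 scale in WT (edgeR adjusted p = 9.44e-09) and 4.88 ± 0.26 in SMOC2, more than any member. Samhd1, which depletes deoxynucleotides, rose by 1.28 and 1.08, and Ptpn1, a phosphatase that acts on JAK2 and TYK2, by 0.82 and 0.68. The gene that fell was Nlrx1, a mitochondrial regulator of MAVS (-0.82 and -0.73). Its difference between SMOC2_UUO and WT_UUO was 0.47, with an adjusted p of 0.0532.

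A further 63 interferon-stimulated genes outside the 38 were counted in the same way. Of these, 54 were called higher and 4 lower in each comparison, with median log2 changes of 1.64 in WT and 1.69 in SMOC2. Over all tested genes 31.3% were higher and 29.8% lower in WT, and 32.5% and 30.4% in SMOC2. Epsti1 rose by 2.29 ± 0.18 SE in WT (edgeR adjusted p = 1.67e-07) and 2.08 ± 0.18 in SMOC2. Ube2l6, the ISG15-conjugating enzyme, rose by 2.14 and 2.08, Psmb8, a subunit of the immunoproteasome, by 2.89 and 2.75, and Dtx3l, a ubiquitin ligase, by 1.91 and 1.82. The 4 that fell, named after their values were seen, were Ifi44l (-2.57 and -4.17), Ifit1bl2 (-0.66 and -1.38), Znfx1 (-0.46 and -0.40) and Pnpt1 (-0.37 and -0.42). WT_UUO replicate 4 was the highest of its group for 50 of the 63 (27.7% of all tested genes) and WT_normal replicate 3 for 54 of the 63 (33.9%). The 2 libraries that stood high for the members also stood high for interferon-stimulated genes that are no members. This list is not independent of the members. It was chosen with earlier results of these data known and holds near-copies of some members, such as Oas1g, which shares 57.6% of the Oas1a stretches.

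Markers of leukocytes moved with the same contrast; beside the counts of markers called higher stand 31.3% of all tested genes in WT and 32.5% in SMOC2. Of 15 macrophage and monocyte genes, 14 rose in WT and 13 in SMOC2, and their summed level went from 226.6 to 274.1 CPM in WT_normal to 1577 to 1812 in WT_UUO, and from 227.9 to 289.0 in SMOC2_normal to 1412 to 1954 in SMOC2_UUO. Plasmacytoid dendritic cell markers, of cells specialised in type I interferon production, rose in 5 of 6 under each label, with sums of 1.15 to 2.96 CPM in the normal libraries and 18.5 to 28.3 in the obstructed ones. Conventional dendritic cell markers rose in 7 of 7, T and NK cell markers in 11 of 14 and neutrophil markers in 5 of 5 tested, with sums of 8.78 to 21.1 CPM in normal and 36.1 to 72.6 in obstructed libraries for T and NK cells. B and plasma cell markers rose in 3 of 7 in WT and 5 of 7 in SMOC2. None of these lists had a gene at 0 over a whole group, except that Mmp8 of the neutrophil list had 0 counts in SMOC2_normal. Proximal tubule markers fell in 10 of 10 under each label, beside 29.8% of all tested genes called lower in WT and 30.4% in SMOC2. The 10 loop, distal tubule and collecting duct markers also fell under each label, and fibroblast and myofibroblast markers rose in 8 of 8. Endothelial markers fell in 4 of 8 in WT and in 3 of 8 in SMOC2, where 1 rose. Whether these changes in marker RNA bear on the rise of the members was not tested.

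Marker lists differed in whether they followed the library that stood high among obstructed wildtype kidneys. WT_UUO replicate 4 had a macrophage and monocyte sum of 1638 CPM, between the 1577 and 1812 of replicates 2 and 3, and a plasmacytoid dendritic cell sum of 24.3, within the 18.6 to 28.3 of its group. The T and NK cell sums were 36.1, 72.6, 46.4 and 53.2 CPM in replicates 1 to 4. Conventional dendritic cell sums were 135.0, 110.2, 119.8 and 140.8 CPM, highest in replicate 4, which was highest for 5 of the 7 genes. Endothelial sums were 630.9, 595.2, 689.8 and 701.9 CPM, also highest in replicate 4, which was highest for 6 of the 8 genes. The proximal tubule sums were 1665, 3458, 1642 and 4177 CPM and the fibroblast and myofibroblast sums 5162, 3305, 4575 and 2868 CPM, so replicates 2 and 4 had the most tubular and the least fibroblast RNA. WT_normal replicate 3 had the highest endothelial (958.7 CPM) and fibroblast (565.4 CPM) sums of its group. Its sums were also the highest for conventional dendritic cells (29.45 CPM), plasmacytoid dendritic cells (2.96) and T and NK cells (14.96). The macrophage and monocyte (253.1) and B and plasma cell (14.92) sums of that library lay between those of the other libraries. Its neutrophil sum (1.558) was the lowest. SMOC2_normal replicate 3 was highest for 8 of 8 endothelial genes (sum 928.4 CPM against 740.4 and 691.7) and for 7 of 8 fibroblast genes (389.1 against 309.9 and 204.5). That library also had the highest conventional dendritic (24.75 CPM), B and plasma cell (33.74) and neutrophil (3.218) sums, and not those of the other leukocyte lists. Whether these shifts bear on the level of the members was not tested.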

How the data were processed

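The files hold raw read counts per Ensembl gene, 1 file a library, as deposited by the authors. Per the submitters' processing notes the tools were STAR 2.4.1d and featureCounts 1.4.4 with mm10; no source used here gives the strand setting, annotation or treatment of shared reads. Per the labels' protocols, libraries came from a stranded mRNA kit. Symbols came from GENCODE M21 (GRCm38), which matched 47310 of 47729 identifiers; 419 unmatched rows held 0.0288% of counts. Genes were filtered with filterByExpr, scaled by TMM and fitted with 4 group means over 14 libraries in edgeR 4.0.16 (R 4.3.3), with two-sided quasi-likelihood tests, Benjamini-Hochberg adjustment over 17926 genes and calls at adjusted p under 0.05. The pipeline was tested on simulated data in which far fewer genes changed than between normal and obstructed kidney. That simulation does not cover a contrast as broad as obstruction. Alternatives were other scalings and filters, DESeq2 1.42.0, limma-voom (limma 3.58.1), a replicate block, fits of the compared groups alone and each library left out. Named were all 38 members, up to 4 genes a comparison with the smallest p of each pathway or marker list, ligands with a count, and Smoc2, plus a few named after their values were seen. The members and lists were chosen with earlier results of these data known. Depths of 19483994 to 30033405 counts limit the rarest members.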

Additional observations from a re-analysis of the deposited data

Results flagged for a closer look

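In groups of 4 libraries, a library whose gap to its nearest neighbour was large for the range of the group was singled out. Large meant above Dixon's 95% critical value, applied to CPM. Of the members' groups, 9 of 76 groups looked at had one, and chance alone gives about 1 in 20 where values are normally distributed. The share over all tested genes was not counted, so whether 9 is an excess was not tested. In 6 of the 9 the library was WT_UUO replicate 4, as the highest of its group: Stat2 at 104 CPM (next highest 59.7), Ifit1 at 32.0 (9.34), Bst2 at 65.3 (34.8), Parp14 at 192 (104), Rtp4 at 40.5 (17.4) and Ifi44 at 34.4 (15.7). SMOC2_UUO replicate 4 was far above its group for Irf9, at 147 CPM (62.1), and for Ifit2, at 49.4 (35.9), and far below it for Isg15, at 4.75 CPM (next lowest 8.56). The members share these libraries, so the 9 are not independent of each other.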

How the results depend on the processing

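The 31 members called higher after obstruction numbered 29 to 31 in WT and 26 to 31 in SMOC2 over the libraries left out in turn, and 29 to 31 in both over the other alternatives; under a minimum of 50 counts in 3 libraries 37 members were tested and 30 called. The count called lower, 0 otherwise, was 2 in WT without WT_UUO replicate 4 (range 0 to 2; Rsad2 and Ifi44) and 1 in SMOC2 (Rsad2) when only the compared groups were fitted and when WT_normal replicate 3 and WT_UUO replicate 4 were both left out, a choice made after seeing the data. The cause was not tested. Both genotype comparisons and the interaction called 0 members in every alternative run, and no called change reversed. Upper-quartile scaling moved the median of all genes from 0.045 to 0.157 and that of the members from 1.57 to 1.67 in WT. Over all tested genes, same-numbered libraries deviated together little (correlations from -0.091 to 0.173). The titles do not say that the numbers pair samples, so the numbers were not read as pairs. Replicate 3 was the highest library for most members in both normal groups (35 of 38 in WT_normal and 27 of 38 in SMOC2_normal). A fit with the replicate number as a block called 31 members in WT and 31 in SMOC2. Depth limits Oas3, Mx1 and the interferon genes most.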
